A study of Mus musculus with 11 samples.

Results

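Early B-lineage genes are 10 genes that mark the progenitors of B cells: Ebf1, Pax5, Vpreb1, Vpreb3, Igll1, Cd79a, Cd79b, Rag1, Rag2 and Il7r. They were found by their Ensembl gene IDs in GRCm38 among the 52636 genes listed for each liver, and all 10 are among the 17243 genes with enough counts to be tested. RNA was sequenced from single fetal livers at E15.5, a stage of mid to late gestation. There were 3 WT, 2 Tnfr1-/-, 3 Casp8-/- Mlkl-/- and 3 Casp8-/- Tnfr1-/- livers, 11 in all, all on the C57BL/6N background, and no embryo was treated. WT embryos carried none of these deletions, Tnfr1-/- embryos lacked the TNF receptor TNFR1, and both double mutants lacked caspase-8. Casp8-/- Mlkl-/- embryos also lacked MLKL, the effector of necroptosis, through deletion of an exon of Mlkl, whereas Casp8-/- Tnfr1-/- embryos kept Mlkl and lacked TNFR1. Casp8-/- Tnfr1-/- embryos die before birth. All deletions were in the germline and thus in every cell of the liver. Nothing in the labels says which embryos were littermates, so p-values measure the spread between these livers.

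The fetal liver is the main site where B cells are made before birth. A lymphoid progenitor receives IL-7 through the receptor chain IL-7Rα, turns on the transcription factors EBF1 and then PAX5, and rearranges its antibody heavy chain gene with the RAG recombinase. The new heavy chain is displayed with a surrogate light chain, made of VpreB and λ5 proteins, and signals through CD79A and CD79B. The comparison of genotypes asks whether these genes were lower in livers in which interferon-stimulated and neutrophil genes were higher.

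Levels are CPM, counts scaled to a common normalized library size. Library totals ranged from 23129212 to 35819339 counted reads. The members were thinly covered: Vpreb1 had 0 to 73 reads per liver and Rag1, the deepest, 88 to 823. Per length of exon, the highest WT levels of the 10 genes were those of Igll1 (4.51 ± 1.14 RPKM, SD, n = 3) and Cd79b (4.003 ± 0.679 RPKM), and the lowest were those of Ebf1 (0.397 ± 0.174 RPKM) and Rag2 (0.334 ± 0.0220 RPKM). RPKM, as given by the authors, scale reads by gene length and depth. Hepatocyte genes were abundant in each liver, with Alb between 22880 and 124600 CPM.

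There were 2 livers that stood apart. Casp8-/- Mlkl-/- replicate 1 and Casp8-/- Tnfr1-/- replicate 3 had normalization factors of 0.812 and 0.758, against 1.01 to 1.09 in the other 9 livers. In the former, 10 hepatocyte genes summed to 237900 CPM, against 53860 to 112000 CPM in the other 10 livers. In the latter, 10 striated muscle genes summed to 1526 CPM, against 15.6 to 37.7 CPM, its hemoglobin genes summed to 171700 CPM, against 34640 to 61020 CPM, and it was the only liver with Xist above 1 CPM. Calls on the members are therefore given with these livers and without them; their part in the levels of the members was not tested. Mlkl was lowest in the Casp8-/- Mlkl-/- livers (0.730 to 1.22 CPM). Casp8 was lower in all 6 livers labelled Casp8-/- (7.82 to 21.9 CPM) than in the other 5 (27.7 to 33.9 CPM). Tnfrsf1a, which encodes TNFR1, had 49.8 and 50.5 CPM in Tnfr1-/- livers and 47.1 to 53.4 CPM in WT livers, so that its count over the gene does not check that deletion.

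With all 11 livers, none of the 10 genes was called in any of the 5 comparisons between genotypes. In Casp8-/- Tnfr1-/- livers, 9 of 10 had a lower fitted level than in WT livers, with a median log2 fold change of -0.87, and Il7r had a higher one. The summed level of the 10 genes was 43.6, 33.5 and 27.7 CPM in WT livers, 47.4 and 50.6 CPM in Tnfr1-/- livers, and 21.8, 22.9 and 28.0 CPM in Casp8-/- Tnfr1-/- livers. In Casp8-/- Mlkl-/- livers it was 134.8, 21.9 and 21.1 CPM. Replicates 2 and 3 of that genotype were thus the lowest with Casp8-/- Tnfr1-/- replicate 1, while replicate 1 was far above every other liver. In bulk livers, fewer B-lineage cells and less RNA per cell cannot be told apart.

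**Figure D1:**
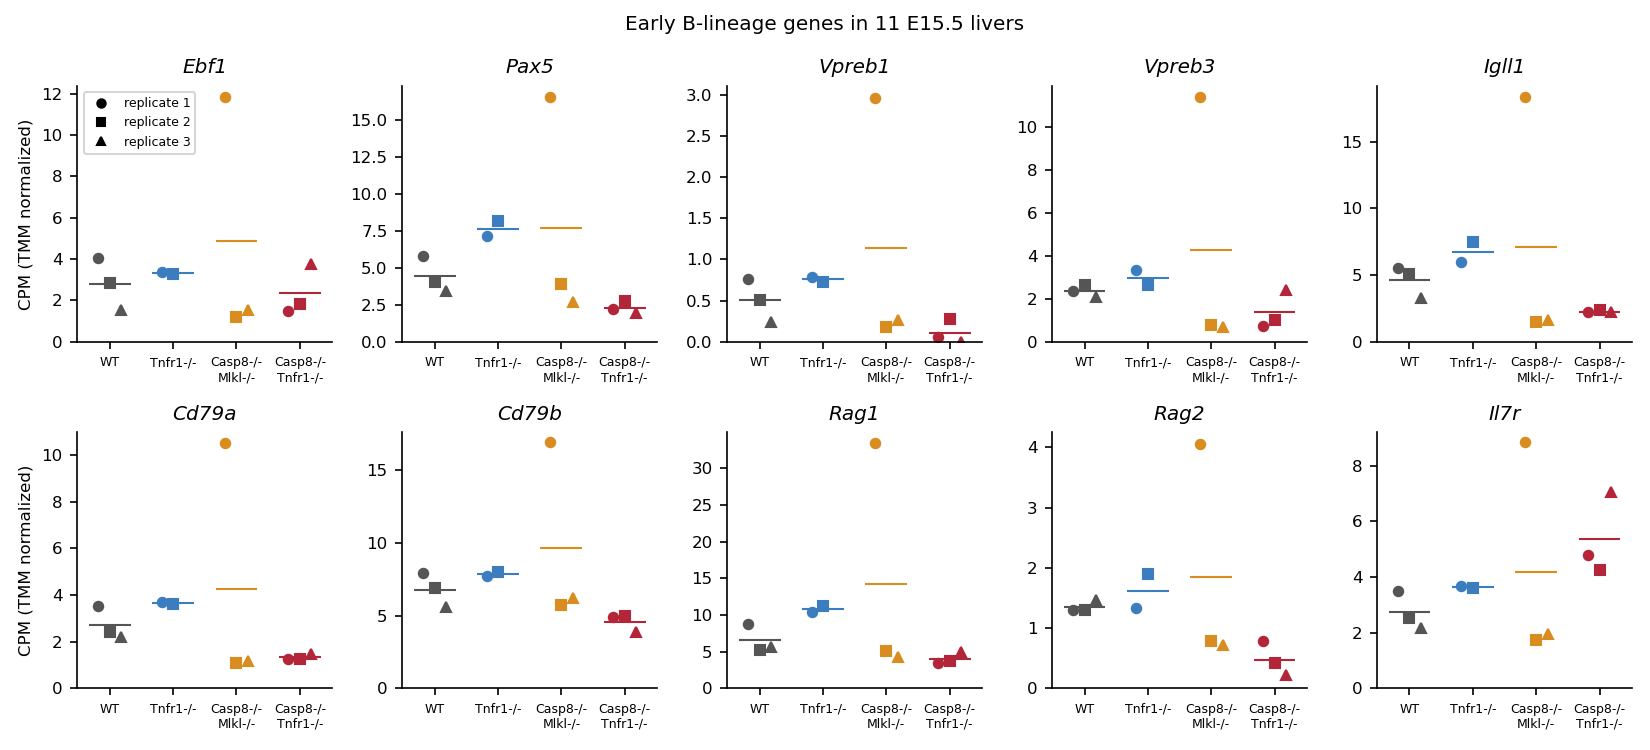
Level of each early B-lineage gene (CPM, linear axes from 0) in the 11 livers by genotype. Points are livers, shaped by replicate number, and lines are genotype means; Casp8-/- Mlkl-/- replicate 1 is the highest liver in all 10 panels, and only Il7r has the 3 Casp8-/- Tnfr1-/- livers above all WT and Tnfr1-/- livers.

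Ebf1 and Pax5 encode the transcription factors that specify and then commit cells to the B lineage. Ebf1 (chromosome 11, 44617317 to 45008091, in GRCm38 as for all positions here) measured 4.07, 2.85 and 1.54 CPM in WT livers, 3.39 and 3.27 CPM in Tnfr1-/- livers, 11.8, 1.22 and 1.53 CPM in Casp8-/- Mlkl-/- livers, and 1.49, 1.82 and 3.76 CPM in Casp8-/- Tnfr1-/- livers. The Casp8-/- Tnfr1-/- livers overlapped with both WT and Tnfr1-/- livers (log2 fold change against WT -0.27 ± 0.80, SE, edgeR adjusted p = 0.843). Pax5 (chromosome 4, 44524757 to 44710487) measured 5.80, 4.02 and 3.43 CPM in WT livers, 7.11 and 8.13 CPM in Tnfr1-/- livers, 16.5, 3.89 and 2.67 CPM in Casp8-/- Mlkl-/- livers, and 2.20, 2.75 and 1.94 CPM in Casp8-/- Tnfr1-/- livers. All 3 Casp8-/- Tnfr1-/- livers lay below all 5 WT and Tnfr1-/- livers. The log2 fold change of Pax5 against Tnfr1-/- livers was -1.72 ± 0.64 (SE; edgeR adjusted p = 0.224), and against WT livers -0.94 ± 0.59 (adjusted p = 0.340). Exons of Pax5 overlap 761 bases of exons of genes on the other strand, and reads of these cannot be told apart without strand.

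Vpreb1 and Igll1 encode the chains of the surrogate light chain, VpreB and λ5, and Vpreb3 encodes a related protein of pre-B cells. Vpreb1 (chromosome 16, 16868403 to 16870843) measured 0.768, 0.503 and 0.237 CPM in WT livers, 0.793 and 0.722 CPM in Tnfr1-/- livers, 2.96, 0.174 and 0.267 CPM in Casp8-/- Mlkl-/- livers, and 0.0610, 0.275 and 0 CPM in Casp8-/- Tnfr1-/- livers. The last value rests on 0 reads, which allows up to 0.171 CPM by a floor of 3 counts, counting error only. The fitted log2 fold change of Vpreb1 against WT was -2.01 ± 1.22 (adjusted p = 0.325), and -3.56 without Casp8-/- Tnfr1-/- replicate 2. Of the 50-base stretches of Vpreb1 transcripts, as long as a read, 23.6% also occur in other genes, mostly in Vpreb2, and reads there are lost from a count of unique reads. Exons of Top3b on the other strand overlap 108 bases of Vpreb1 exons. The 2 coding sequences, each of 426 bases, differ at 9 positions. The window that holds 5 of them, from base 298 to base 387 of the coding sequence in GENCODE transcripts, is shown because reads there can be told apart, with the differing bases in capitals.
Vpreb1: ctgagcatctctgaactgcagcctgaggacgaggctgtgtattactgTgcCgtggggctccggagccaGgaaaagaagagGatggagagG
Vpreb2: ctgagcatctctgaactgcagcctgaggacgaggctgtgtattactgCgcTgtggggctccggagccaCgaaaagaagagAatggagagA
Vpreb2 itself was at 0 to 0.284 CPM in the 11 livers and was not tested.

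Igll1 (chromosome 16, 16860671 to 16863985), next to Vpreb1 and with no stretch shared with other genes, measured 5.53, 5.11 and 3.31 CPM in WT livers, 5.96 and 7.45 CPM in Tnfr1-/- livers, 18.3, 1.45 and 1.64 CPM in Casp8-/- Mlkl-/- livers, and 2.20, 2.38 and 2.22 CPM in Casp8-/- Tnfr1-/- livers. Every liver lacking caspase-8 except Casp8-/- Mlkl-/- replicate 1 lay below the 5 livers with caspase-8, an order that 3.1% of genes tested had. Its log2 fold change was -1.04 ± 0.82 (adjusted p = 0.441) against WT and -1.56 ± 0.89 (adjusted p = 0.419) against Tnfr1-/- livers. Vpreb3 (chromosome 10, 75943057 to 75949657) measured 2.38, 2.64 and 2.09 CPM in WT livers, 3.34 and 2.66 CPM in Tnfr1-/- livers, 11.4, 0.785 and 0.688 CPM in Casp8-/- Mlkl-/- livers, and 0.732, 1.03 and 2.39 CPM in Casp8-/- Tnfr1-/- livers. For Vpreb3, Casp8-/- Tnfr1-/- replicate 3 lay within the WT range and replicates 1 and 2 lay below it (log2 fold change against WT -0.80 ± 0.95, adjusted p = 0.602, and -1.42 without replicate 3).

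Cd79a and Cd79b encode the signalling chains of the pre-B cell receptor. Cd79a (chromosome 7, 24897381 to 24902197) measured 3.53, 2.43 and 2.21 CPM in WT livers, 3.72 and 3.61 CPM in Tnfr1-/- livers, 10.5, 1.10 and 1.18 CPM in Casp8-/- Mlkl-/- livers, and 1.25, 1.27 and 1.48 CPM in Casp8-/- Tnfr1-/- livers. The pattern of Cd79a was that of Igll1, with a mean of 1.33 ± 0.127 CPM (SD, n = 3) in Casp8-/- Tnfr1-/- livers against 2.73 ± 0.709 CPM (n = 3) in WT livers. Its log2 fold change was -1.03 ± 0.76 (adjusted p = 0.410) against WT and -1.46 ± 0.82 (adjusted p = 0.414) against Tnfr1-/- livers. Cd79b (chromosome 11, 106311341 to 106314762) measured 7.95, 6.87 and 5.56 CPM in WT livers, 7.74 and 8.01 CPM in Tnfr1-/- livers, 16.9, 5.72 and 6.23 CPM in Casp8-/- Mlkl-/- livers, and 4.88, 4.99 and 3.87 CPM in Casp8-/- Tnfr1-/- livers. Cd79b was the only member with all Casp8-/- Tnfr1-/- livers below all Casp8-/- Mlkl-/- livers, an order that 6.15% of genes tested had. Its log2 fold change was -0.57 ± 0.39 against WT (adjusted p = 0.376) and -0.78 ± 0.42 against Tnfr1-/- livers (adjusted p = 0.398).

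Rag1 and Rag2, neighbours on chromosome 2, encode the recombinase that joins antibody gene segments. Rag1 (101638282 to 101649501) measured 8.76, 5.24 and 5.64 CPM in WT livers, 10.4 and 11.2 CPM in Tnfr1-/- livers, 33.4, 5.03 and 4.20 CPM in Casp8-/- Mlkl-/- livers, and 3.42, 3.72 and 5.01 CPM in Casp8-/- Tnfr1-/- livers. Rag2 (101624718 to 101632529) measured 1.31, 1.30 and 1.46 CPM in WT livers, 1.34 and 1.90 CPM in Tnfr1-/- livers, 4.05, 0.785 and 0.726 CPM in Casp8-/- Mlkl-/- livers, and 0.793, 0.413 and 0.228 CPM in Casp8-/- Tnfr1-/- livers. For both genes, the livers lacking caspase-8 other than Casp8-/- Mlkl-/- replicate 1 lay below all 5 livers with caspase-8. With Igll1 and Cd79a, 4 of 10 members had this order, as did 3.1% of genes tested. That liver was set aside after its values were seen. The log2 fold change of Rag2 was -1.45 ± 0.70 against WT (edgeR adjusted p = 0.229), the smallest adjusted p of the members in that comparison, and -1.70 ± 0.75 against Tnfr1-/- livers (adjusted p = 0.297). For Rag1 it was -0.70 ± 0.68 (adjusted p = 0.529) and -1.42 ± 0.74 (adjusted p = 0.379). Exons of B230118H07Rik overlap 80 bases of Rag1 exons and 208 bases of Rag2 exons.

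The promoters were read for motifs of factors of the pathway, in the 250 bases before the start of transcription (RefSeq, GRCm38.p6). 9 of 10 members had an entry, all but Cd79b. The E-box CAGGTG bound by E2A, on either strand, occurs in 4 members (Vpreb1, Igll1, Cd79a and Rag1) and in 17.2% of all 32851 promoters. The EBF1 core CCCNNGGG, a palindrome, occurs in Igll1 and in 11.8% of promoters, and the interferon response core (TTTC, any 2 bases, TTTC), on either strand, in Ebf1 and in 2.98%. The motifs do not contain each other. The promoters of Igll1 (chr16:16863986-16864235, minus strand), Rag1 (chr2:101649533-101649782, minus strand) and Rag2 (chr2:101624462-101624711, plus strand) are shown, since the last is a neighbour of Rag1 with the same order of livers and no such E-box, with CAGGTG or its reverse complement in capitals.
Igll1: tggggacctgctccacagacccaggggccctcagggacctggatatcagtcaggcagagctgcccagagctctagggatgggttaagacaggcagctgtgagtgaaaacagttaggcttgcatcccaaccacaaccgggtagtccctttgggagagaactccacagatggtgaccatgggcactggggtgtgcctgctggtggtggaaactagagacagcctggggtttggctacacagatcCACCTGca
Rag1: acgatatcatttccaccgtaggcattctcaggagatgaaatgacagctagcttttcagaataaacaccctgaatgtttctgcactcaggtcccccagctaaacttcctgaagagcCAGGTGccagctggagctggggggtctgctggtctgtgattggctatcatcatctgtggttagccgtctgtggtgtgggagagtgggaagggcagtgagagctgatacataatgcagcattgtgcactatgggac
Rag2: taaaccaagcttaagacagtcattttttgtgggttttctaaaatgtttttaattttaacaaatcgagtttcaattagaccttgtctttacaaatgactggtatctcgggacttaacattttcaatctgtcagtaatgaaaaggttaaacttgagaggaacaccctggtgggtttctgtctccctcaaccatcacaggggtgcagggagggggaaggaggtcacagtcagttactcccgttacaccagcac
The E-box begins 8 bases before the start in Igll1 and 135 bases before it in Rag1. Igll1, Cd79a and Rag1, which hold it, and Pax5 and Rag2, in which no match was found, had the same order of livers, with all Casp8-/- Tnfr1-/- livers below all WT and Tnfr1-/- livers. Vpreb1, which also holds it, did not have this order, with 0.275 CPM in Casp8-/- Tnfr1-/- replicate 2 and 0.237 CPM in WT replicate 3.

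Il7r, which encodes the IL-7Rα chain of the receptors for IL-7 and TSLP, went against the other members. Il7r (chromosome 15, 9505788 to 9530176) measured 3.50, 2.52 and 2.17 CPM in WT livers, 3.67 and 3.61 CPM in Tnfr1-/- livers, 8.84, 1.74 and 1.95 CPM in Casp8-/- Mlkl-/- livers, and 4.79, 4.27 and 7.07 CPM in Casp8-/- Tnfr1-/- livers. All 3 Casp8-/- Tnfr1-/- livers lay above the 5 WT and Tnfr1-/- livers, while Casp8-/- Mlkl-/- replicates 2 and 3 lay below them. Its log2 fold change was 0.97 ± 0.57 (adjusted p = 0.307) against WT and 0.56 ± 0.63 (adjusted p = 0.664) against Tnfr1-/- livers. Across the 11 livers, the log2 CPM of Il7r had a Pearson's r of 0.42 with the mean of the other 9 members, and of -0.06 without Casp8-/- Mlkl-/- replicate 1, as a description of livers that share genotypes and libraries. For the other members this r lay between 0.80 (Rag2) and 0.99 (Cd79a), and between 0.65 and 0.98 without that liver. IL-7Rα is also carried by other lymphoid cells. The summed level of 11 NK and innate lymphoid genes was 20.2, 20.9 and 9.40 CPM in Casp8-/- Tnfr1-/- livers and 13.0 to 18.5 CPM in WT and Tnfr1-/- livers, with 0 of the 8 tested called against WT. Of 11 T cell genes, 5 were tested and none was called. The summed level of the 11 was 22.4 to 24.2 CPM in Casp8-/- Tnfr1-/- livers and 16.5 to 19.7 CPM in WT and Tnfr1-/- livers, while the defining gene Cd3e had 0 to 2 reads in each liver. In Casp8-/- Tnfr1-/- replicate 3, Thy1 made 10.3 of 23.5 CPM, against 0.434 to 1.30 CPM of Thy1 in WT and Tnfr1-/- livers. The part of these cells in the level of Il7r was not tested.

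**Figure D2:**
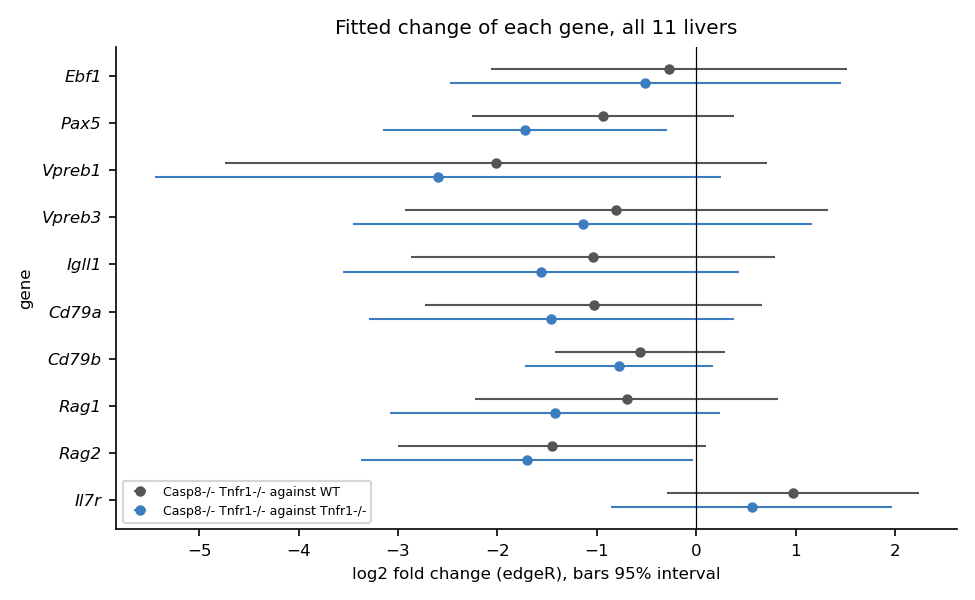
Fitted log2 fold change of each gene in Casp8-/- Tnfr1-/- livers against WT and against Tnfr1-/- livers, with all 11 livers in the fit (points, with 95% intervals as bars). 9 of 10 genes have negative values and Il7r a positive one in both comparisons; the widest interval is that of Vpreb1, from -5.45 to 0.25 against Tnfr1-/- livers.

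In edgeR's test with all 11 livers, 0 of 10 members were called in either direction in each comparison. The background differed between comparisons. Among all genes tested, 5.8% were called in Casp8-/- Tnfr1-/- against WT, 2.17% against Tnfr1-/- and 1.65% against Casp8-/- Mlkl-/- livers, 0.0058% in Casp8-/- Mlkl-/- against WT and 0.0% in Tnfr1-/- against WT livers. The number of members with an unadjusted p under 0.05 was 0, 2, 5, 0 and 0 of 10 in the same order, where 24.6%, 16.4%, 15.3%, 5.63% and 1.08% of all genes had one. DESeq2 and limma-voom called none of those they gave an adjusted p for. The median log2 fold change of the 10 members was -0.87 against WT, -1.44 against Tnfr1-/- and -1.66 against Casp8-/- Mlkl-/- livers, where the median over all genes tested was 0.00, -0.01 and -0.03. In Casp8-/- Mlkl-/- against WT and in Tnfr1-/- against WT, all 10 members had positive values in edgeR, with medians of 0.71 and 0.42. In limma-voom, 4 of 10 were negative in Casp8-/- Mlkl-/- against WT livers and the median was 0.05. These comparisons share livers, so they are not separate evidence. In 6 of 10 members (Pax5, Igll1, Cd79a, Cd79b, Rag1 and Rag2) all Casp8-/- Tnfr1-/- livers lay below all WT and Tnfr1-/- livers, an order that 12.4% of genes tested had. Il7r alone had the opposite order, which 15.7% of genes had.

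With 1 liver left out at a time, members were called only without Casp8-/- Mlkl-/- replicate 1. It was the highest of the 11 livers in 10 of 10 members, as in 16.5% of genes tested, and its levels were a median of 7.92 times the mean of the other livers of its genotype. The 4 genotypes share an estimate of the spread, which includes this liver also where its genotype is not compared. EdgeR fits of only the 2 genotypes compared leave out all Casp8-/- Mlkl-/- livers against WT and Tnfr1-/- livers. They called none of the 9 members tested against WT (lowest adjusted p of 0.129) and none of the 10 tested against Tnfr1-/- livers (0.135). Without it, edgeR called 2 of 10 members lower in Casp8-/- Tnfr1-/- against WT livers, Igll1 (log2 fold change -1.03, adjusted p = 0.0313) and Cd79a (-1.03, adjusted p = 0.0365), where 2.15% of genes were called lower. Against Tnfr1-/- livers it called 4 of 10 lower, Pax5 (-1.73), Igll1 (-1.56), Cd79a (-1.46) and Rag1 (-1.42), with adjusted p between 0.0129 and 0.0229, where 0.755% of genes were called lower. The median log2 fold changes in these comparisons were -0.87 and -1.44, as with all livers. Il7r against WT then had an adjusted p of 0.0549. Without Casp8-/- Tnfr1-/- replicate 3 alone, no member was called.

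Without that liver, 7 of 10 members (Ebf1, Vpreb3, Igll1, Cd79a, Rag1, Rag2 and Il7r) lay below all WT and Tnfr1-/- livers in both remaining Casp8-/- Mlkl-/- livers, as did 9.15% of genes tested. The median log2 fold change of the members against WT then turned from 0.71 to -0.94 in Casp8-/- Mlkl-/- livers. None of the 10 was called lower there, where 0.0% of genes were. The median of Casp8-/- Tnfr1-/- against Casp8-/- Mlkl-/- livers turned from -1.66 to 0.01. In that comparison Il7r alone was called higher (adjusted p = 0.0360), where 3.03% of genes were.

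With Casp8-/- Tnfr1-/- replicate 3 left out as well, which leaves 2 livers in each double mutant and was chosen after the values were seen, 6 members were called lower against WT (Vpreb3, Cd79a, Pax5, Rag2, Rag1 and Igll1, where 13.5% of genes were), and Il7r was called higher (17.8% of genes). Against Tnfr1-/- livers 8 were called lower, all but Ebf1 and Il7r (9.3% of genes). In Casp8-/- Mlkl-/- against WT livers, Vpreb3, Cd79a and Igll1 were called lower (3.18% of genes). Against Casp8-/- Mlkl-/- livers, Il7r was again called higher (12.0% of genes), with a median of -0.05 over the members. Counts called with and without these livers thus differ, while the sign of the median against WT and Tnfr1-/- livers did not.

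**Figure D3:**
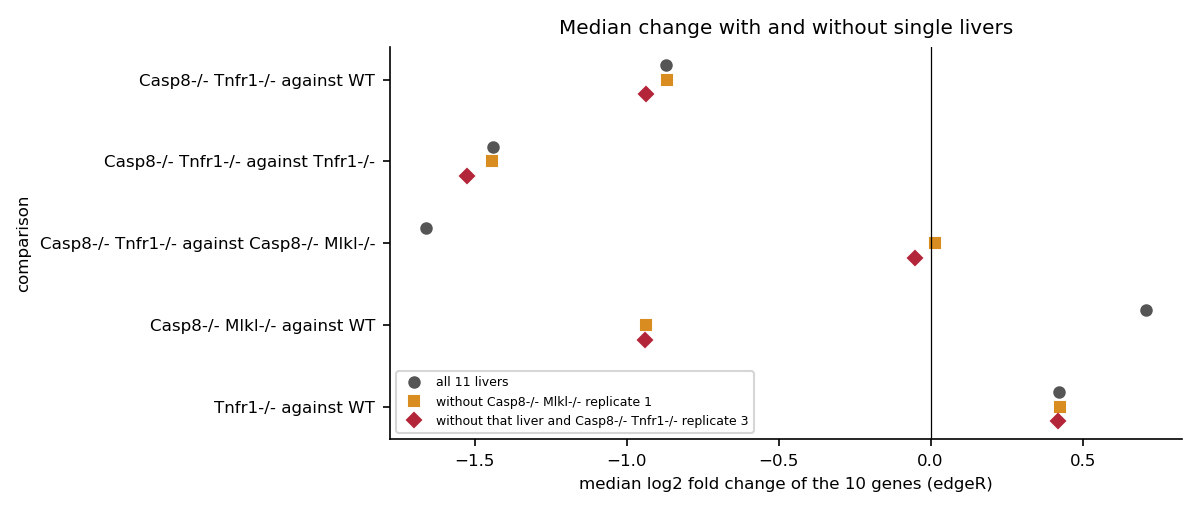
Median log2 fold change of the 10 genes in the 5 comparisons, with all 11 livers (circles), without Casp8-/- Mlkl-/- replicate 1 (squares) and without that liver and Casp8-/- Tnfr1-/- replicate 3 (diamonds). Both comparisons that contain Casp8-/- Mlkl-/- livers shift, from 0.71 to -0.94 against WT and from -1.66 to 0.01, and the other medians keep their sign.

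Interferon-stimulated and neutrophil genes were followed in the same livers, in lists chosen with earlier results of these data known, so that their counts are a description. In Casp8-/- Tnfr1-/- livers, 34 of 34 interferon-stimulated genes rose against WT and 32 against Tnfr1-/- livers, and their summed level was 3382, 2965 and 5349 CPM, against 319 to 355 CPM in WT and Tnfr1-/- livers. Of 18 neutrophil genes, 10 rose against WT and 2 against Tnfr1-/- livers (18 and 18 without both livers that stood apart), with summed levels of 6704, 8140 and 19100 CPM against 1257 to 1829 CPM. Without both livers that stood apart, 17.8% of all genes were called higher against WT. By their mean over all 11 livers, the most abundant were Rsad2 and Isg15 of the interferon-stimulated genes and S100a9 and Ngp of the neutrophil genes. S100a9, a subunit of calprotectin, had 1576, 1880 and 6468 CPM in Casp8-/- Tnfr1-/- livers, 908, 216 and 241 CPM in Casp8-/- Mlkl-/- livers, and 230 to 337 CPM in WT and Tnfr1-/- livers. In Casp8-/- Mlkl-/- replicates 2 and 3 the interferon sums were 523 and 559 CPM and the neutrophil sums 1458 and 1609 CPM, within the range of WT and Tnfr1-/- livers for the latter. Without both livers that stood apart, 21 of 34 interferon-stimulated and 3 of 18 neutrophil genes were called higher in Casp8-/- Mlkl-/- than in WT livers. In that comparison 1086 of 16958 genes were called in either direction. With all livers none of the listed genes was. Summed B-lineage levels in Casp8-/- Mlkl-/- replicates 2 and 3, 21.9 and 21.1 CPM, were as low as in Casp8-/- Tnfr1-/- livers. Casp8-/- Mlkl-/- replicate 1 had the highest B-lineage sum together with sums of 1227 CPM for interferon and 3957 CPM for neutrophil genes, both above those of every WT and Tnfr1-/- liver. B-lineage sums of Casp8-/- Tnfr1-/- replicates 1 and 2 and of Casp8-/- Mlkl-/- replicates 2 and 3 were below those of all WT and Tnfr1-/- livers. The neutrophil sum was above the range of WT and Tnfr1-/- livers in the former and within it in the latter. Casp8-/- Tnfr1-/- replicate 3, with a B-lineage sum of 28.0 CPM, was within the WT range (27.7 to 43.6 CPM). Il7r made 7.07 CPM of that sum, against 2.17 to 3.50 CPM in WT livers. By the mean log2 CPM of the 10 genes, this liver was at 0.773, below all WT livers (1.17 to 1.84). Interferon sums, 523 to 5349 CPM, were above those of every WT and Tnfr1-/- liver in every liver lacking caspase-8, also in the one with the highest B-lineage sum. The part of either set of genes in the B-lineage sum was not tested.

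**Figure D4:**
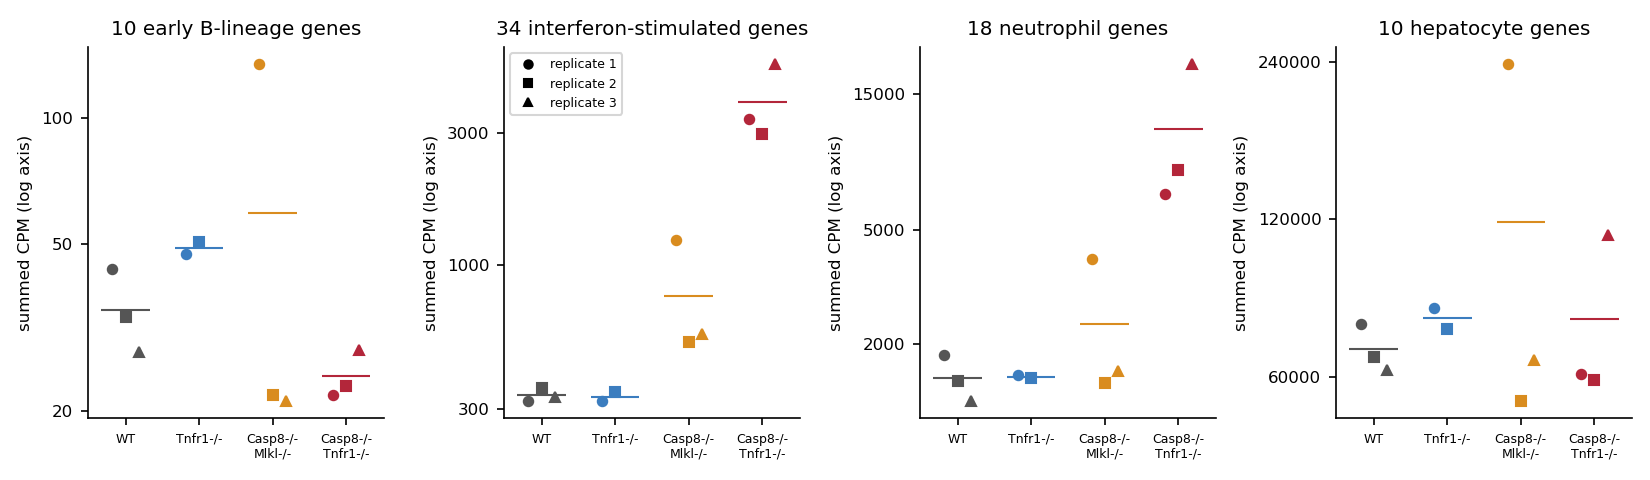
Summed CPM (log axes) of the 10 early B-lineage, 34 interferon-stimulated, 18 neutrophil and 10 hepatocyte genes in each liver, with genotype means as lines and replicate numbers as shapes. Casp8-/- Mlkl-/- replicates 2 and 3 have B-lineage sums of 21.9 and 21.1 CPM, like Casp8-/- Tnfr1-/- livers, with neutrophil sums of 1458 and 1609 CPM, like WT livers; replicate 1 is highest for B-lineage and hepatocyte genes.

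Other genes of the pathway were read from lists chosen with earlier results of these data known. Of 19 further B-lineage transcription factors, 1 rose against WT in Casp8-/- Tnfr1-/- livers and none fell with all livers, with a median log2 fold change of 0.28. Without both livers that stood apart, 5 were called higher and 4 lower against WT, where 17.8% and 13.5% of genes were. Against Tnfr1-/- livers, 3 were then called higher and 5 lower, where 9.3% of genes were called lower. The gene that rose was Spi1, which encodes PU.1 of both B and myeloid cells (log2 fold change 1.52 ± 0.26, adjusted p = 0.00888). Of 12 genes of B cell receptor signalling, 5 rose and none fell: Plcg2 (1.21 ± 0.15), Lyn (0.98 ± 0.16), Ptprc (2.32 ± 0.41), Syk (0.87 ± 0.17) and Pik3ap1 (1.56 ± 0.35), with adjusted p between 0.00218 and 0.0314. These genes, which encode signalling enzymes, the phosphatase CD45 and an adaptor, are also used by myeloid cells. Of 13 macrophage markers, 9 had negative values against WT (median log2 fold change -0.31), 2 were called higher (Lyz2 and Cd68) and 2 lower (Marco and Clec4f). Their summed level was 1104 to 1216 CPM in Casp8-/- Tnfr1-/- livers and 733 to 999 CPM in WT and Tnfr1-/- livers, of which Lyz2 made 559 to 815 and 168 to 279 CPM. The part of myeloid cells in these changes was not tested. Without Casp8-/- Tnfr1-/- replicate 3, which had 234.7 CPM of Ptprc against 84.9 and 88.4 CPM in the other livers of its genotype, the log2 fold change of Ptprc was 1.67. Without both livers that stood apart, 6 of the 12 signalling genes were called higher and 1 lower (17.8% and 13.5% of genes). Of 9 other B cell surface and processing genes, 6 were tested and 2 rose, Bst1 (3.67 ± 0.92, adjusted p = 0.0466) and Cd93 (1.27 ± 0.31, adjusted p = 0.0451). Bst1 had 8.27, 8.47 and 49.4 CPM in Casp8-/- Tnfr1-/- livers and 1.42 to 2.62 CPM in WT and Tnfr1-/- livers. Cd93 had 53.6, 48.6 and 119.4 CPM in Casp8-/- Tnfr1-/- livers and 29.5 to 35.0 CPM in WT and Tnfr1-/- livers. Without Casp8-/- Tnfr1-/- replicate 3, the log2 fold changes of Bst1 and Cd93 were 2.29 and 0.75. The part of cells other than B cells in their levels was not tested. Without both livers that stood apart, 4 of the 6 surface and processing genes tested were called higher (17.8% of genes). Dntt, which encodes the enzyme that adds bases at antibody joints and is known to be low before birth, had 0 to 0.158 CPM in the 11 livers.

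Of 7 immunoglobulin genes, 4 were tested, of which none was called against WT or Tnfr1-/- livers with all livers. Without both livers that stood apart, 2 and 1 were called lower, where 13.5% and 9.3% of genes were. All 4 had negative values against WT. Ighm, which encodes the μ heavy chain, measured 27.6, 17.3 and 12.7 CPM in WT livers, 23.5 and 24.4 CPM in Tnfr1-/- livers, 65.9, 13.2 and 11.3 CPM in Casp8-/- Mlkl-/- livers, and 11.2, 11.3 and 8.66 CPM in Casp8-/- Tnfr1-/- livers. Ighm had the order of 6 of the 10 members, with each Casp8-/- Tnfr1-/- liver below all WT and Tnfr1-/- livers (log2 fold change against WT -0.89, adjusted p = 0.37). Igkc, the κ light chain constant region, did not share it. It had 322, 94 and 6 reads in WT livers, 25 and 22 in Tnfr1-/- livers, 100, 12 and 11 in Casp8-/- Mlkl-/- livers, and 19, 19 and 12 in Casp8-/- Tnfr1-/- livers, so that WT replicate 1 alone held the most. Ighd, Jchain and the λ constant regions had at most 63 reads in a liver. Immunoglobulin segments resemble each other, so that unique reads may miss part of their RNA.

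In the IL-7 pathway and the niche, 1 of 14 genes tested rose and 1 fell in Casp8-/- Tnfr1-/- against WT livers. Il2rg, the common γ chain that pairs with IL-7Rα, rose (log2 fold change 1.22 ± 0.21, adjusted p = 0.00941). It measured 6.88, 4.49 and 6.55 CPM in WT livers, 5.14 and 5.74 CPM in Tnfr1-/- livers, 16.6, 12.7 and 12.7 CPM in Casp8-/- Mlkl-/- livers, and 14.5, 14.97 and 12.4 CPM in Casp8-/- Tnfr1-/- livers. All 6 livers lacking caspase-8 lay above the other 5, including both Casp8-/- Mlkl-/- livers in which Il7r was lowest. Cxcl12, a stromal chemokine that retains B progenitors, fell by 0.66 ± 0.16 on the log2 scale (adjusted p = 0.0391). It measured 123.4, 128.0 and 88.4 CPM in Casp8-/- Tnfr1-/- livers and 172.5 to 218.4 CPM in WT and Tnfr1-/- livers, which did not overlap. Il7 itself had 3.69, 3.03 and 1.71 CPM in Casp8-/- Tnfr1-/- livers and 1.01 to 1.69 CPM in WT and Tnfr1-/- livers (adjusted p = 0.12, not called). Of 9 genes of DNA end joining, which complete the joints that RAG proteins open, none was called against WT (median log2 fold change -0.26). Without both livers that stood apart, 3 were called higher and 1 lower (median -0.025), and 5 higher and 2 lower among the IL-7 and niche genes. Among all genes, 17.8% were called higher and 13.5% lower there. Over 20 other settings, the calls of Spi1, Plcg2 and Il2rg held in all 20, that of Lyn in 19, those of Ptprc and Syk in 16, that of Pik3ap1 in 14, and those of Cd93, Bst1 and Cxcl12 in 10.

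Genes whose log2 CPM was among the most like the mean of the 10 members over the 11 livers were Aldh1l1 (a folate enzyme, r = 0.99), Pou2af1 (a coactivator of B cells, r = 0.98), Pxmp4 (a peroxisomal membrane protein, r = 0.98) and Tmprss6 (a hepatocyte protease of iron control, r = 0.98). Without Casp8-/- Mlkl-/- replicate 1, r was 0.97, 0.95, 0.95 and 0.97 over the remaining 10 livers. Aldh1l1 measured 63.2 to 82.9 CPM in WT and Tnfr1-/- livers, 151.7, 54.3 and 50.5 CPM in Casp8-/- Mlkl-/- livers, and 53.5, 53.3 and 58.2 CPM in Casp8-/- Tnfr1-/- livers. Tmprss6 measured 64.3 to 89.0 CPM in WT and Tnfr1-/- livers, 207.3, 56.2 and 58.2 CPM in Casp8-/- Mlkl-/- livers, and 53.9, 62.0 and 50.7 CPM in Casp8-/- Tnfr1-/- livers. These genes were chosen for this likeness, so that their order of livers is a description; both are far more abundant than the members. By deviations from genotype means, the closest genes were Fggy, Aldh2, Ncald, Serpinc1 and Man2b1 (r = 0.991 to 0.999), and r over 10 livers without Casp8-/- Mlkl-/- replicate 1 was between 0.40 for Aldh2 and 0.98 for Serpinc1, which encodes hepatocyte antithrombin. These values are descriptions over livers that share libraries and normalization.

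**Figure D5:**
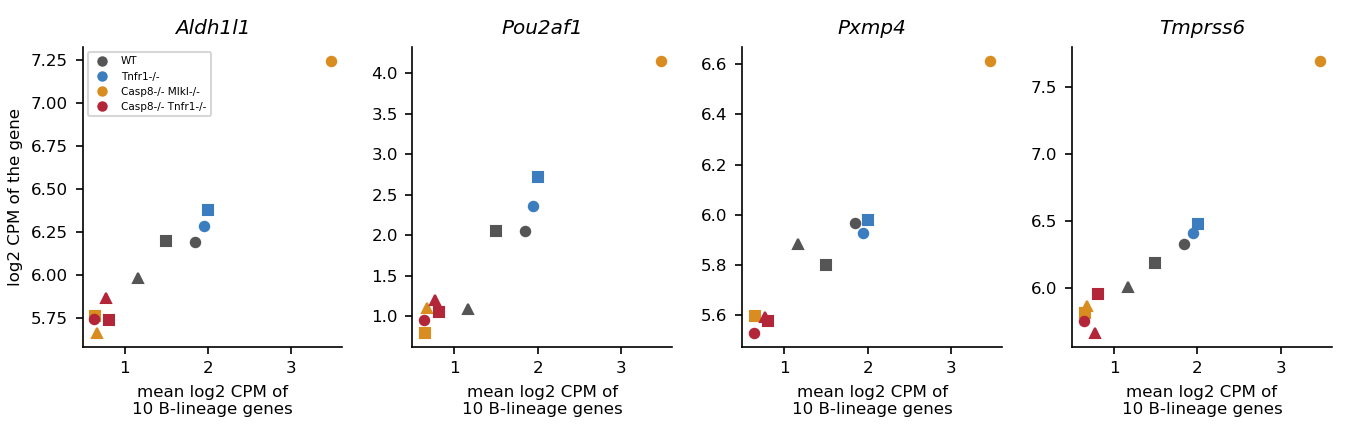
Log2 CPM of Aldh1l1, Pou2af1, Pxmp4 and Tmprss6 (vertical axes) against the mean log2 CPM of the 10 early B-lineage genes (horizontal axes) in the 11 livers, colored by genotype and shaped by replicate number. In each panel Casp8-/- Mlkl-/- replicate 1 is at the upper right and the other 5 livers lacking caspase-8 are at the lower left (r = 0.98 to 0.99 over 11 livers).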

How the data were processed

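RNA of single E15.5 livers was sequenced as single-end 50-base reads. The labels name a TruSeq RNA v2 kit and a HiSeq4000, the paper a stranded kit and a NovaSeq. Per the labels and the paper, reads were aligned to GRCm38/mm10 with GSNAP, and unique reads were used. The counting tool, annotation release and use of strand are not given in the sources used here. The authors deposited raw counts per gene without normalization, a width in bases, and RPKM, used only for levels between genes. Names and positions are from GENCODE M 21 (GRCm38).

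Genes kept by filterByExpr (minimum count 10) were normalized by TMM and tested by edgeR's (4.0.16) quasi-likelihood method, with all 11 livers in a fit of the 4 genotypes, as a two-sided test. Benjamini-Hochberg adjusted p under 0.05, over 17243 genes, were called. CPM use TMM sizes, log2 CPM a prior count of 2. The common biological coefficient of variation was 33.3%. SE of edgeR values were derived from each test, as the size of the log2 fold change divided by the square root of its F statistic. The 95% intervals were built from these SE. Intervals and floors of 3 counts cover no other error than that named. The fit was also run on simulated counts with a smaller spread than here and no livers that stood apart, so it does not test that case. DESeq2 1.42.0 and limma 3.58.1 were alternatives. Members and lists were chosen with earlier results of these data known. Named genes are the members, the called genes of the B-lineage, IL-7 and end joining lists (at most 5 a list), immunoglobulin genes and the 5 genes most like the members by each of 2 measures (mean CPM of at least 1), of which 1 is not reported here. Dntt, Vpreb2, Il7, Cd3e and the called macrophage markers are outside this rule and were named after their values were seen.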

Additional observations from a re-analysis of the deposited data

How the results depend on the processing

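DESeq2 size factors, library sizes without hemoglobin genes, DESeq2, limma-voom, both other filters, fits of only the genotypes compared and a replicate block left every count of members called at 0. In limma-voom, however, the medians were 0.05 in Casp8-/- Mlkl-/- against WT and -0.81 in Casp8-/- Tnfr1-/- against Casp8-/- Mlkl-/- livers. DESeq2 gave 4 of the 10 members no adjusted p in each comparison, so that these could not be called. Its lowest adjusted p was 0.0556, in Casp8-/- Tnfr1-/- against Casp8-/- Mlkl-/- livers. Fits of only 2 genotypes tested 9 members in Casp8-/- Tnfr1-/- against WT and against Casp8-/- Mlkl-/- livers. Leaving out each liver in turn gave 0 to 2 members lower against WT and 0 to 4 against Tnfr1-/- livers, and 0 to 1 higher against Casp8-/- Mlkl-/- livers (counts above 0 came from leaving out Casp8-/- Mlkl-/- replicate 1). The medians then ran from -1.54 to -1.36 against Tnfr1-/- livers, from -2.12 to 0.014 against Casp8-/- Mlkl-/- livers, and from -0.94 to 1.14 in Casp8-/- Mlkl-/- against WT livers. The value of Ebf1 against WT ran from -0.76 to 0.10, reversed without WT replicate 1, that of Vpreb1 from -3.56 to -1.56 and that of Vpreb3 from -1.42 to -0.48. Without both livers of low normalization factor, counts were 6 lower and 1 higher against WT, 8 lower against Tnfr1-/-, 1 higher against Casp8-/- Mlkl-/- and 3 lower in Casp8-/- Mlkl-/- against WT livers, and medians were -1.53 against Tnfr1-/-, -0.052 against Casp8-/- Mlkl-/- and -0.94 in Casp8-/- Mlkl-/- against WT livers. That setting leaves fewer livers by construction and was chosen after seeing the data.

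Replicate numbers share only a name: deviations of same-numbered livers from genotype means had r between -0.30 and 0.27. With the replicate block, the median against Tnfr1-/- livers was -1.25, no call on the members changed, and 7 of the 10 calls named from other lists held. Depth limits Vpreb1 and Rag2 most, with 0 to 73 and 4 to 100 reads in a liver.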
